A study of Mus musculus with 6 samples.

Results

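The genes described here make amino acids, carry them across membranes, or belong to the ATF4 response that controls both. They were chosen as a list of 47 symbols, and 46 of them were measured among 19939 named genes, since Pycr1 had no probe set paired with it alone and was not analysed here. A gene with several probe sets was read from the one with the highest mean over all 6 arrays. The cells were Melan-Ink4a, a melanocyte line from C57BL/6J mouse skin that lacks the Ink4a-Arf tumour suppressor locus in every sample. NRG1 cells had been kept with 10 nM of neuregulin 1 (NRG1-b1), a growth factor that acts through the receptor ERBB3, for 21 days (3 arrays). Untreated cells received no NRG1 (3 arrays), and the labels give no matching time in culture for them. Both groups grew in RPMI medium with serum, cholera toxin (200 pM) and TPA, a phorbol ester (200 nM), to 90% confluence before RNA was isolated. The line is 1 culture system without a second clone or donor, and nothing in the labels tells whether replicate arrays were separate cultures. The spread behind each p-value may therefore be technical.

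ATF4 is a transcription factor whose protein is made when the kinases GCN2, PERK, PKR or HRI phosphorylate the translation factor eIF2 alpha, for example when amino acids run short or the endoplasmic reticulum is stressed. Growth signals through mTORC1 can also raise ATF4. With partners of the C/EBP family it binds a composite element in its target genes, which include asparagine synthetase, enzymes of serine and mitochondrial folate metabolism, and many amino acid transporters. Melanocytes use amino acids for protein and, in the form of tyrosine and cysteine, for pigment.

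The composite element was searched for as the letters TGATGNAA on either strand, where N is any base, in RefSeq promoter windows (build GRCm38.p6) from 250 bases before to 50 bases after a transcription start. Of the 46 genes, 41 had a window and 8 of these 41 genes (19.5%) held the letters at least once. Among all genes tested on the arrays that have a window the share was 3.62%, and among all genes with a promoter window it was 4.51%. Genes of the ATF4 response are in the list by choice, so this share is no measure of ATF4 action in these cells. The 8 genes were Asns, Vldlr, Slc1a4, Trib3, Chac1, Got1, Nupr1 and Slc7a7. Slc7a7 was not called and is left out of the display. The stretches around the match are shown for the other 7, of which 4 rose with NRG1 and 3 were not called. Each is written 5′ to 3′ on the strand of the gene, with the match in capitals. In Asns it reads TGATGAAA, 23 to 16 bases before the start, and in the other 6 it lies in the reverse direction.
Asns (chr6:7693210-7693268, minus strand): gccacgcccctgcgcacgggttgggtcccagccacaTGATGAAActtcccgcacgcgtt
Vldlr (chr19:27216784-27216863, plus strand): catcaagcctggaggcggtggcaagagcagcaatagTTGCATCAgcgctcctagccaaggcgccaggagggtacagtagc
Slc1a4 (chr11:20332699-20332728, minus strand): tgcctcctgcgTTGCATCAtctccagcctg
Trib3 (chr2:152344028-152344057, minus strand): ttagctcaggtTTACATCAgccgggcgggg
Chac1 (chr2:119351013-119351092, plus strand): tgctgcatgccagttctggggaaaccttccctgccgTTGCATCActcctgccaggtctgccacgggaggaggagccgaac
Got1 (chr19:43524664-43524743, minus strand): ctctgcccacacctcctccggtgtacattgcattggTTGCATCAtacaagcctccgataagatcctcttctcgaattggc
Nupr1 (chr7:126625537-126625616, minus strand): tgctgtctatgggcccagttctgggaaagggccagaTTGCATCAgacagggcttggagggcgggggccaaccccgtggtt
The first 4 of these belong to genes that rose in NRG1 cells, and the last 3 to genes that were not called. Split by outcome, the letters were found in 4 of 14 genes that rose, 0 of 5 that fell and 4 of 22 that were not called and had a window. In Slc1a4 the match spans the start (4 bases on either side) and in Trib3 it lies 15 to 22 bases after it. A match is a run of letters and not a measured binding site.

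With NRG1, 14 of the 46 genes rose and 5 fell, and 27 were not called (limma, adjusted p under 0.05 over all 19939 genes). Of all genes tested, 20.9% were called, 12.3% rising and 8.56% falling, against 41.3%, 30.4% and 10.9% of these 46. The 46 were brighter than most genes, with 38 of them at or above the median level. Among all genes at or above that level 33.3% were called, against 44.7% of these 38 genes, so the excess over genes at that level was smaller than the excess over all genes. By direction, 31.6% of the 38 rose, against 20.5% of genes at that level, and 13.2% fell, against 12.9%. The share of falls was thus near that of genes at the same level. The share of rises among all calls was 59% as deposited and 48% after quantile normalization of the same values, where the 46 genes gave 12 rises and 8 falls. The median difference was 0.083 on the log2 scale for the 46 genes and -0.029 for all genes, and after quantile normalization 0.029 and -0.030. For all genes at or above the median level it was 0.008, and -0.047 after quantile normalization. The groups did not overlap (3 NRG1 arrays all on one side of the 3 untreated arrays) at 28 of the 46 genes (60.9%), and at 36.7% of all genes. At or above the median level they did not overlap at 68.4% of the 38 genes and 53.9% of all genes. Asns rose, and Glul and Slc7a8 fell, by at least 2-fold, and the other called changes were smaller.

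**Figure D1:**
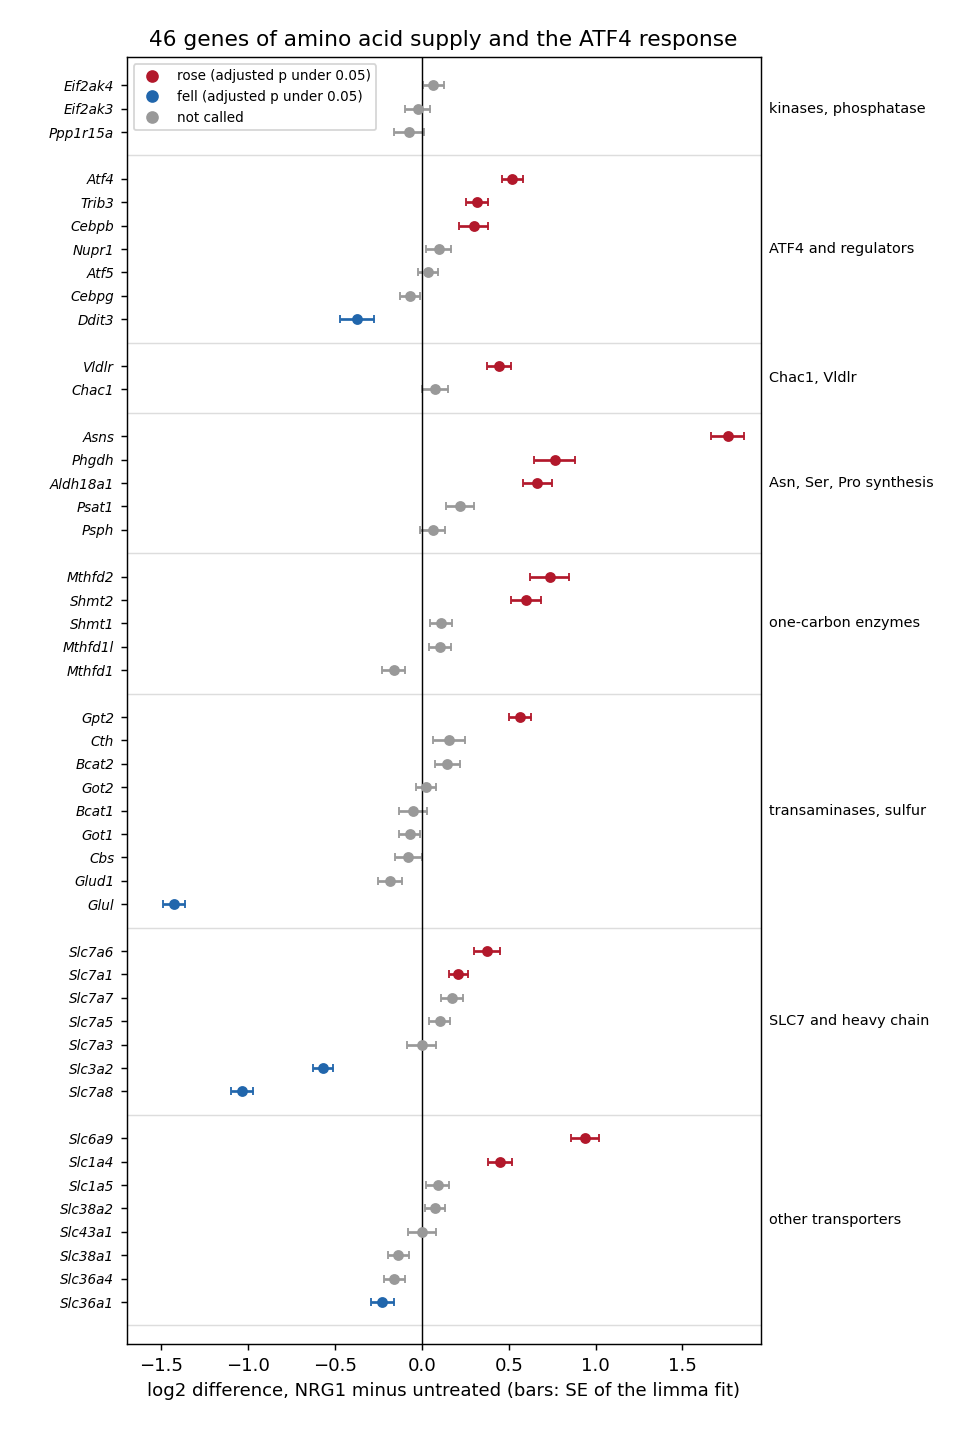
Log2 difference between NRG1 and untreated cells (x axis, positive where NRG1 is higher) for each of the 46 genes, grouped by role, with the standard error of the limma fit as bars and n = 3 arrays per group. Asns stands furthest to the right at 1.76, and Glul (-1.43) and Slc7a8 (-1.03) furthest to the left.

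The cells carried the transcripts that define melanocytes. All 8 melanocyte markers had 6-array means from 9.12 to 13.9, where the median gene was at 7.17, and 7 of the 8 fell in NRG1 cells. Keratinocyte markers averaged 6.08 to 6.09 over the NRG1 arrays and 6.06 to 6.25 over the untreated arrays, with 0 of 7 called by limma and 0 at an unadjusted p under 0.05. Macrophage markers averaged 6.22 to 6.29 on NRG1 arrays and 6.21 to 6.35 on untreated arrays, with 1 of 7 called (Cd68, higher in NRG1 cells by 0.23). Fibroblast markers averaged 6.69 to 6.85 on NRG1 arrays and 6.58 to 6.76 on untreated arrays, with 1 of 7 called (Col1a1, higher in NRG1 cells by 0.86). The part of the fall in melanocyte markers in the results below was not tested. In RNA from a whole culture, fewer cells of a kind and less RNA per cell cannot be told apart. The medians of the arrays ran from 6.99 to 7.07 (log2, every probe set), and arrays correlated at 0.996 to 0.997 within a group and at 0.981 to 0.986 between groups.

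Transcripts of the upstream kinases and of the phosphatase control did not pass the test. Eif2ak3, which encodes PERK, the kinase that senses stress of the endoplasmic reticulum, was at 9.76, 9.86 and 9.92 in NRG1 cells and 9.89, 9.96 and 9.76 in untreated cells. Eif2ak4 encodes GCN2, which senses uncharged tRNA, and differed by 0.067 ± 0.06 (SE; limma, adjusted p = 0.502). Ppp1r15a, whose product GADD34 brings a phosphatase to eIF2 alpha and is itself an ATF4 target, differed by -0.073 ± 0.087 (limma, adjusted p = 0.627). The values of the groups overlapped for all 3 genes. Transcript levels of these kinases do not measure their activity.

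Atf4 itself rose, while the other regulators split. Atf4 was at 9.52, 9.47 and 9.43 in NRG1 cells and at 8.97, 9.01 and 8.89 in untreated cells. The groups were well apart, with a difference of 0.52 ± 0.062 on the log2 scale (SE), which is 1.43-fold (limma, adjusted p = 0.000163). Trib3, a pseudokinase gene that ATF4 induces and whose product restrains ATF4, was at 8.23, 8.26 and 8.38 with NRG1, against 7.93, 7.99 and 8.003 without it. All 3 NRG1 values were higher, and the gene rose by 0.32 (limma, adjusted p = 0.00509). With a minimum change of 1.2-fold it was no longer called, and its adjusted p lay between 0.000761 and 1 in the 16 settings. Cebpb encodes a C/EBP partner of ATF4 and was at 8.36, 8.39 and 8.12 in NRG1 cells and at 7.92, 7.97 and 8.08 in untreated cells. Its lowest NRG1 array was just above its highest untreated array. Cebpb rose by 0.30 ± 0.082 (limma, adjusted p = 0.0265). This call was lost on leaving out any 1 of 4 arrays: NRG1 replicate 1 (adjusted p = 0.0907) or 2 (0.0966), or untreated replicate 1 (0.102) or 2 (0.0615). It also ended after quantile normalization (adjusted p = 0.0591), with the replicate number as a block (0.0565) and against a minimum change of 1.2-fold, in a range from 0.00647 to 1 over 16 settings.

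Ddit3 went the other way. It encodes CHOP, a stress-induced factor that partners with C/EBP proteins and is linked to cell death in prolonged stress. Its values were 7.76, 7.55 and 7.67 in NRG1 cells and 8.02, 8.23 and 7.85 in untreated cells. Every NRG1 array was below every untreated one, and the gene fell by 0.38 ± 0.096 (SE; limma, adjusted p = 0.0191). That call ended without NRG1 replicate 2 (adjusted p = 0.0702) or 3 (0.0501) and without untreated replicate 1 (0.0524), and against a minimum change of 1.2-fold, in a range from 0.00375 to 1 over 16 settings. Atf5, a relative of ATF4 under similar translational control, differed by 0.034 ± 0.059 (limma, adjusted p = 0.748). Cebpg, another dimer partner of ATF4, differed by -0.066 (limma, adjusted p = 0.486), and Nupr1, a stress-induced chromatin protein gene, by 0.097 (limma, adjusted p = 0.419). None of these 3 was called under any of the settings tried.

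**Figure D2:**
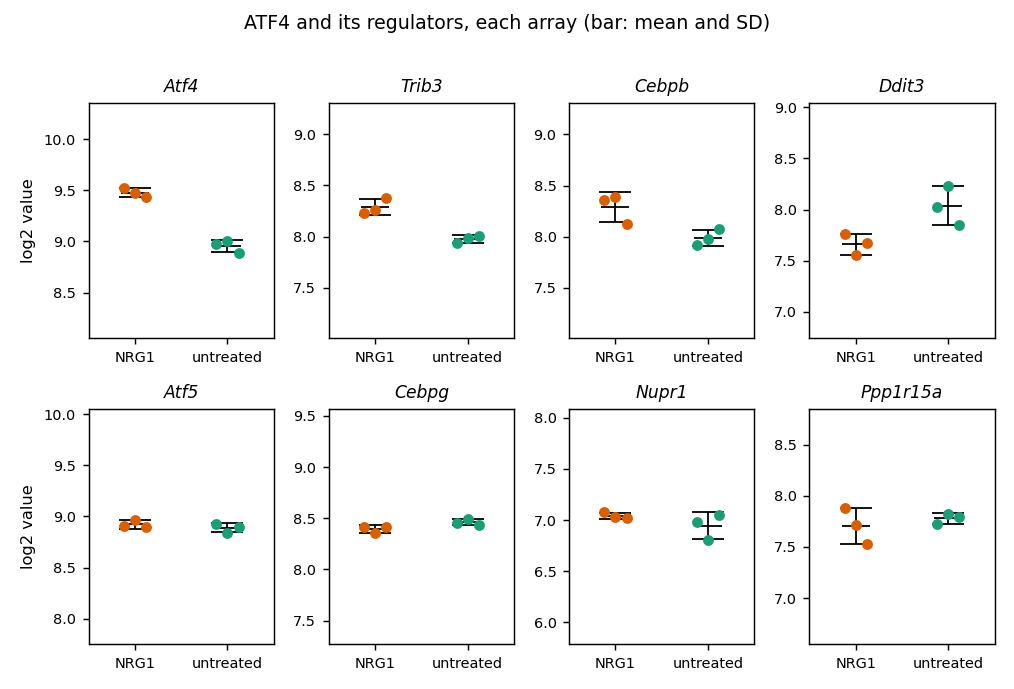
Log2 values of ATF4 and 7 regulators on each array (points), with the mean and SD of each group (bars, n = 3), NRG1 cells on the left of each panel; every panel spans the same 2.3 log2 units (y axis). Atf4, Trib3 and Cebpb are higher and Ddit3 is lower in NRG1 cells, and Atf5, Nupr1 and Ppp1r15a overlap.

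Among the remaining target genes, Vldlr rose and Chac1 did not pass. Vldlr, a lipoprotein receptor gene induced through ATF4 in stressed cells, was at 6.81, 6.89 and 6.83 with NRG1 and at 6.50, 6.39 and 6.30 without. The groups did not overlap and the rise was 0.44 ± 0.068 (SE; limma, adjusted p = 0.000908). With a minimum change of 1.2-fold it was no longer called (adjusted p = 0.16; lowest of the 15 settings that measured it 0.000354). Its mean level lay below the median gene, where array signals are compressed and a difference can be understated. Chac1 encodes an enzyme that breaks down glutathione and is a sensitive target of the ATF4 and CHOP branch. It was at 7.54, 7.79 and 7.66 in NRG1 cells and at 7.64, 7.55 and 7.58 in untreated cells, and the groups overlapped (limma, adjusted p = 0.552).

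Of the 5 measured genes for asparagine, serine and proline synthesis, 3 rose (60%) and 0 fell. Of all genes 12.3% rose, and of genes at or above the median level, where all 5 lie, 20.5%. At an unadjusted p under 0.05 (limma), 4 of the 5 passed upwards, as did 3321 of the 19939 genes tested. Asns encodes asparagine synthetase, which makes asparagine from aspartate with glutamine as the nitrogen donor. Its probe set 10543067 read 10.86, 10.71 and 10.64 in NRG1 cells and 9.002, 9.15 and 8.78 in untreated cells. The gap between the groups was wider than for any other of the 46 genes that rose, at 1.76 ± 0.096 on the log2 scale (SE) or 3.39-fold (limma, adjusted p = 7.03e-07). Phgdh, the first enzyme of serine synthesis from glycolytic 3-phosphoglycerate, was at 8.99, 8.44 and 8.73 in NRG1 cells, against 7.88, 8.02 and 7.96 in untreated cells. The NRG1 arrays were more spread out (SD 0.275) than the untreated ones (SD 0.0695) but all were higher. Phgdh rose by 0.76 ± 0.117 (SE; limma, adjusted p = 0.000964).

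The later steps of serine synthesis moved less. Psat1, the aminotransferase of the second step, was at 9.25, 8.98 and 9.12 with NRG1 and at 8.83, 9.004 and 8.86 without. These values overlapped and the difference of 0.22 ± 0.081 missed the threshold (limma, adjusted p = 0.0879), although it was called under 4 of 16 settings (adjusted p from 0.0148 to 1). Psph, the phosphatase that releases serine, differed by 0.063 ± 0.073 and its groups overlapped (limma, adjusted p = 0.618). Aldh18a1 encodes the enzyme that begins proline synthesis from glutamate and read 9.44, 9.22 and 9.28 in NRG1 cells and 8.66, 8.77 and 8.51 in untreated cells. With no overlap, it rose by 0.67 ± 0.084 (limma, adjusted p = 0.000255).

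In the one-carbon pathway, which takes a carbon unit from serine onto folate, the genes that rose encode mitochondrial enzymes. Shmt2, the mitochondrial serine hydroxymethyltransferase gene, was at 8.97, 8.72 and 8.70 in NRG1 cells and 8.17, 8.31 and 8.11 in untreated cells. It rose by 0.60 ± 0.087 (SE; limma, adjusted p = 0.000648), and the groups were separate. Mthfd2, the mitochondrial dehydrogenase and cyclohydrolase gene, was at 9.39, 8.96 and 9.21 with NRG1 and 8.43, 8.63 and 8.30 without. All 3 NRG1 arrays were higher, with a rise of 0.74 ± 0.113 (limma, adjusted p = 0.000965). Mthfd1l, the mitochondrial formate-releasing synthetase gene, did not pass, at 0.10 ± 0.062 (limma, adjusted p = 0.294). Shmt1, the cytosolic counterpart of Shmt2, differed by 0.11 ± 0.062 (limma, adjusted p = 0.26), and Mthfd1, the cytosolic enzyme with 3 activities, by -0.16 ± 0.066 (limma, adjusted p = 0.118). For Mthfd1l and Shmt1 alike all 3 NRG1 arrays were above the untreated ones, and for Mthfd1 all 3 were below. Mthfd1 was called as lower under 2 of 16 settings, one of them quantile normalization (-0.22, adjusted p = 0.024, in a range from 0.024 to 1).

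Changes of mitochondrial and cytosolic counterparts were set against each other within arrays, for pairs chosen after the values were seen. The change of Shmt2 exceeded that of Shmt1 by 0.49 ± 0.075 on the log2 scale (SE, n = 3 per group), and the change of Mthfd2 exceeded that of Mthfd1 by 0.90 ± 0.114. Both differences had an exact permutation p = 0.1 (2-sided, and 0.1 after Benjamini-Hochberg adjustment over 5 pairs), the smallest that 3 arrays against 3 can give, so this test could not reach 0.05. A further mitochondrial enzyme, from the list of amino acid and folate enzymes outside the 46 genes, changed more than any of them. Aldh1l2, which oxidises formyl-folate in mitochondria, was at 9.49, 9.32 and 9.38 in NRG1 cells and at 6.995, 6.96 and 6.97 in untreated cells. It rose 5.36-fold (limma, adjusted p = 6.82e-09). Its cytosolic relative Aldh1l1 differed by -0.20 at a level in the dimmest part of the table (limma, adjusted p = 0.0569). Tyms, the thymidylate synthase gene of the same list, also rose, by 0.72 (limma, adjusted p = 0.000929). Aldh1l2 was thus not the only folate enzyme gene of that list to rise.

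**Figure D3:**
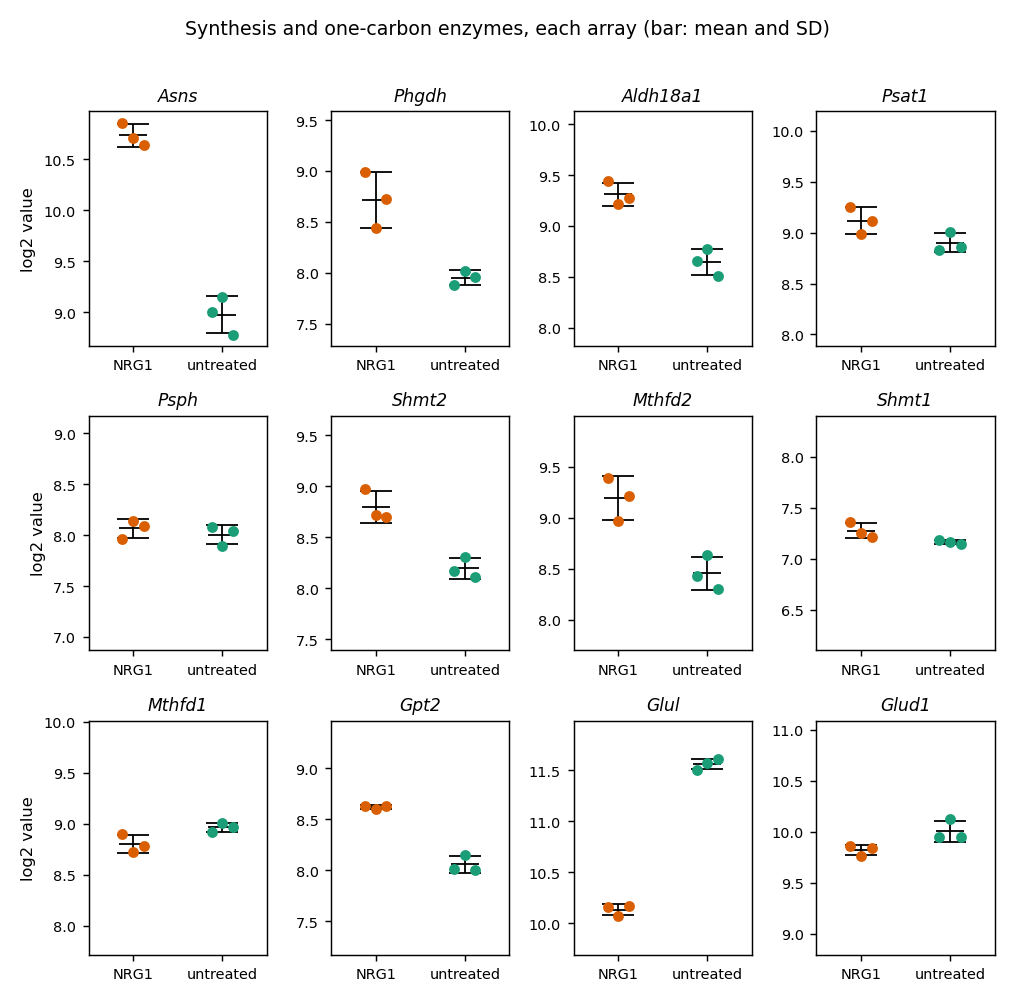
Log2 values of 12 enzymes of amino acid and one-carbon metabolism on each array (points) with the mean and SD of each group (bars, n = 3), NRG1 cells on the left of each panel and 2.3 log2 units on every y axis. Asns, Phgdh, Aldh18a1, Shmt2, Mthfd2 and Gpt2 are higher in NRG1 cells, Glul is lower, and Psat1 and Psph overlap.

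Of 9 transaminases and enzymes of glutamate and sulfur amino acids, 1 rose and 1 fell. That is 22.2% called, against 20.9% of all genes and 33.3% of genes at or above the median level, where 6 of the 9 lie. Gpt2, the mitochondrial alanine aminotransferase gene and a known ATF4 target, was at 8.63, 8.60 and 8.63 with NRG1 and 8.02, 8.15 and 8.01 without. The 3 NRG1 arrays agreed closely, and the rise was 0.56 ± 0.063 (SE; limma, adjusted p = 0.000103). Glul encodes glutamine synthetase, which joins ammonia to glutamate. Its probe set 10374453 read 10.16, 10.07 and 10.17 in NRG1 cells and 11.50, 11.57 and 11.61 in untreated cells. The drop, by 1.43 ± 0.062 on the log2 scale or 2.69-fold, was the largest fall among the 46 genes (limma, adjusted p = 1.47e-07). The second probe set of Glul gave -1.37.

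The others of that group stayed under the threshold. Glud1, glutamate dehydrogenase, had 3 NRG1 values below the 3 untreated ones and a difference of -0.18 ± 0.069 (limma, adjusted p = 0.0914). It was called under 3 of 16 settings, with adjusted p from 0.00753 to 1. The aspartate aminotransferase genes Got1 (cytosolic) and Got2 (mitochondrial) differed by -0.071 and 0.021, and the second probe set of Got2 gave 0.029. Bcat1 and Bcat2, which transfer nitrogen from branched-chain amino acids, differed by -0.051 and 0.15, and Bcat2 was called with array weights only (adjusted p = 0.0186, in a range from 0.0186 to 1). Cbs and Cth make cysteine from homocysteine by way of cystathionine and differed by -0.077 and 0.16. Cth was called without NRG1 replicate 1 only, at 0.26 (adjusted p = 0.0461, in a range from 0.0461 to 1), since that array read 6.33 where the other NRG1 arrays read 6.63 and 6.65. Bcat1, Cbs and Cth were all below the median level of the table.

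Of the 7 genes for SLC7 transporters and the heavy chain that many of them need, 2 rose and 2 fell. Each share is 28.6%, against 12.3% of all genes rising and 8.56% falling. Among genes at or above the median level, where 6 of the 7 lie, 20.5% rose and 12.9% fell. The heavy chain gene was 1 of the 2 that fell. Slc3a2 encodes that heavy chain, also called CD98 or 4F2hc, which carries the light chains SLC7A5, SLC7A6, SLC7A7 and SLC7A8 to the plasma membrane. It was at 12.07, 12.14 and 12.10 in NRG1 cells, against 12.63, 12.71 and 12.67 in untreated cells. The groups were far apart relative to their spread, with a fall of 0.57 ± 0.058 on the log2 scale (SE; limma, adjusted p = 5.89e-05). Slc7a8, the LAT2 light chain gene for neutral amino acids, was at 11.42, 11.57 and 11.49 with NRG1 and 12.51, 12.56 and 12.51 without. It fell 2.05-fold (limma, adjusted p = 1.42e-06).

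Slc7a5, which encodes LAT1, the light chain for large neutral amino acids such as leucine and tyrosine, was not called. Its values were 11.41, 11.44 and 11.32 in NRG1 cells and 11.25, 11.34 and 11.26 in untreated cells, which overlapped, with a difference of 0.10 ± 0.062 (limma, adjusted p = 0.308). For pairs chosen after the values were seen, the change of Slc7a5 exceeded that of Slc7a8 by 1.14 ± 0.051 and that of Slc3a2 by 0.67 ± 0.037 on the log2 scale (SE, n = 3 per group; exact permutation p = 0.1 for each and 0.1 adjusted over the 5 pairs, a test that cannot reach 0.05). Slc7a6, the light chain gene of the exchanger y+LAT2, was at 9.06, 9.06 and 8.89 with NRG1 and at 8.55, 8.73 and 8.60 without. It rose by 0.37 ± 0.074 (limma, adjusted p = 0.00488), lost under 1 of the 16 settings, the minimum change of 1.2-fold. Slc7a7, for the related y+LAT1, had 3 NRG1 values above the untreated ones at 0.17 ± 0.062 (limma, adjusted p = 0.0785), and 3 of 16 settings called it.

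The cationic transporters of the family work without the heavy chain. Slc7a1, the arginine and lysine transporter gene CAT1 and a target of ATF4, was at 9.79, 9.82 and 9.78 in NRG1 cells and 9.57, 9.59 and 9.59 in untreated cells. Despite the tight groups the rise of 0.21 ± 0.056 was small (SE; limma, adjusted p = 0.0223). The Slc7a1 call ended without any 1 of 4 arrays: NRG1 replicate 1 (adjusted p = 0.0675), 2 (0.0775) or 3 (0.0593), or untreated replicate 1 (0.0861). It was also lost after quantile normalization (0.13, adjusted p = 0.0993), with the replicate number as a block (0.06) and against a minimum change of 1.2-fold, and its adjusted p ran from 0.00299 to 1. Slc7a3, for the related CAT3, differed by -0.002 at a mean level below the median gene (limma, adjusted p = 0.991).

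Among the other 8 transporters 2 rose (25%, against 12.3% of all genes) and 1 fell (12.5%, against 8.56%). Of genes at or above the median level, where 6 of the 8 lie, 20.5% rose and 12.9% fell. Slc6a9 encodes the glycine transporter GlyT1 and was at 9.85, 9.73 and 9.57 in NRG1 cells and 8.78, 8.85 and 8.70 in untreated cells. Next to Asns it had the largest rise of the 46 genes, at 0.94 ± 0.08 or 1.92-fold (SE; limma, adjusted p = 1.61e-05). Slc1a4, for the alanine, serine and cysteine transporter ASCT1, was at 7.38, 7.24 and 7.37 with NRG1 and at 6.95, 6.80 and 6.90 without. No values overlapped and it rose by 0.45 ± 0.068 (limma, adjusted p = 0.000889). With a minimum change of 1.2-fold it was no longer called (adjusted p = 0.151; lowest of the 15 settings that measured it 0.000305). Slc36a1, for a proton-coupled transporter on lysosomes, was at 8.04, 8.11 and 7.97 in NRG1 cells and at 8.20, 8.35 and 8.25 in untreated cells. It fell by 0.23 ± 0.067 (limma, adjusted p = 0.0348). The call was lost under 6 of 16 settings, 5 of which leave out an array (NRG1 replicate 1 or 3, or untreated replicate 1, 2 or 3), with adjusted p from 0.00605 to 1.

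The 5 that were not called include the main glutamine carriers. Slc1a5 (ASCT2) was at 8.98, 9.07 and 8.87 in NRG1 cells and 8.87, 8.90 and 8.88 in untreated cells, with overlap (limma, adjusted p = 0.402). Slc38a1 and Slc38a2, for sodium-coupled carriers of glutamine and other small amino acids, differed by -0.14 (limma, adjusted p = 0.163) and 0.075 (limma, adjusted p = 0.432). Slc38a1 was called with a trend and robust prior only, and its second probe set gave -0.059. Slc36a4, for another proton-coupled family member, differed by -0.16 (limma, adjusted p = 0.0912) and was called as lower under 4 of 16 settings. Slc43a1, for the leucine carrier LAT3, differed by 0.003, with overlap, at a level below the median gene (limma, adjusted p = 0.985).

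**Figure D4:**
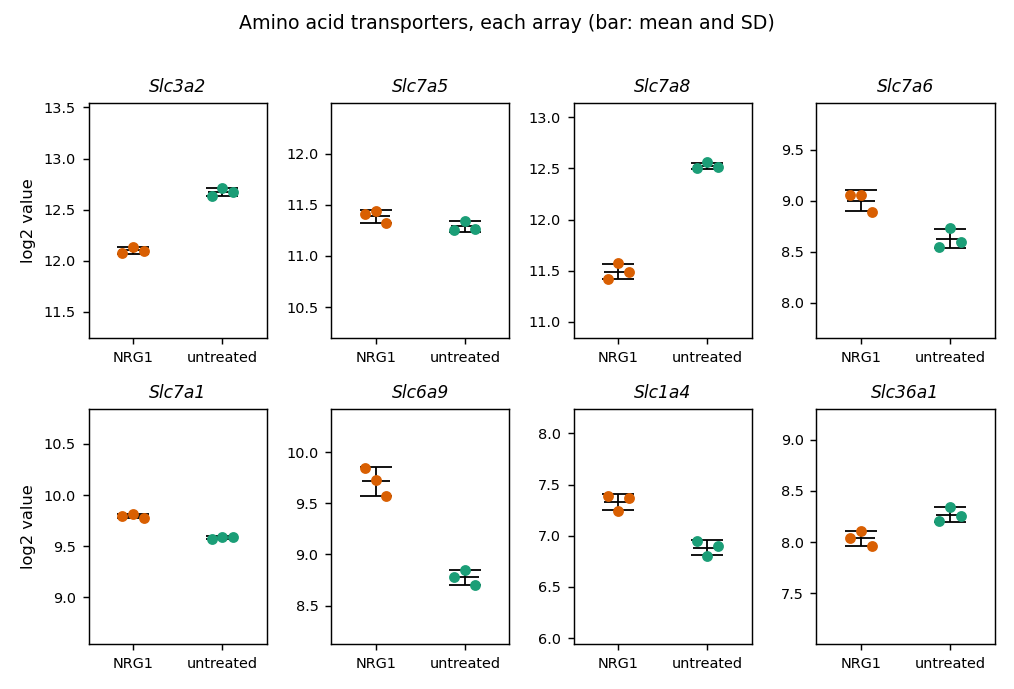
Log2 values of 8 amino acid transporter genes on each array (points) with the mean and SD of each group (bars, n = 3), NRG1 cells on the left of each panel and 2.3 log2 units on every y axis. Slc7a6, Slc7a1, Slc6a9 and Slc1a4 are higher and Slc3a2, Slc7a8 and Slc36a1 lower in NRG1 cells, while Slc7a5 overlaps.

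Other genes of the same pathways were counted in 4 lists. Of 25 further genes of the stress response and ATF4 targets, 5 rose and 0 fell. At an unadjusted p under 0.05 (limma), 7 of the 25 passed upwards and 2 downwards, against 3321 and 3057 of the 19939 genes tested. The share of rises was 20%, against 12.3% of all genes and 20.5% of genes at or above the median level, where 22 of the 25 lie. Quantile normalization gave 4 rises and 3 falls. The rises numbered 3 with the replicate number as a block and 3 on leaving out any 1 array other than untreated replicate 2, 8 with array weights and 2 against a minimum change of 1.2-fold. Atf3, a stress-induced factor downstream of ATF4, rose by 0.94 (limma, adjusted p = 1.41e-06), the angiogenic factor gene Vegfa by 0.55 (adjusted p = 0.000384) and the mTORC1 inhibitor gene Ddit4 by 0.43 (adjusted p = 0.00345). The median of this list was 0.034, against -0.029 for all genes and 0.008 for genes at or above the median level.

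Of 28 further enzymes of amino acid and folate metabolism 4 rose (14.3%, against 12.3% of all genes) and 5 fell (17.9%, against 8.56%). Of genes at or above the median level, where 18 of the 28 lie, 20.5% rose and 12.9% fell. The falls numbered 9 after quantile normalization and 8 without the genes below the median level, and the rises 7 with a trend and robust prior or with array weights. A minimum change of 1.2-fold left 2 rises and 1 fall. After Aldh1l2 the largest rises were those of the thymidylate synthase gene Tyms (0.72) and of Gcsh (0.44), a part of the glycine cleavage system. Falls were led by Cdo1, which oxidises cysteine (-0.52), the serine racemase gene Srr (-0.35) and the ornithine aminotransferase gene Oat (-0.35). These falls had adjusted p = 0.000428, 0.00908 and 0.00388 (limma).

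Of 40 further transporters 6 rose (15%, against 12.3% of all genes) and 4 fell (10%, against 8.56%), shares near those of all genes. Only 13 of the 40 lie at or above the median level, where more genes were called, so the share of all genes is not matched to this list by level. The falls numbered 1 without NRG1 replicate 1 or untreated replicate 3, and 2 without NRG1 replicate 3 or without the genes below the median level. A minimum change of 1.2-fold left 3 rises and 1 fall. The neutral amino acid transporter gene Slc6a15 rose by 0.86 at a dim level (limma, adjusted p = 0.000328), Slc43a3, which carries purine bases, by 0.77, and the taurine transporter gene Slc6a6 by 0.49. Slc6a17, for a vesicular transporter of neutral amino acids, fell by 0.76 (limma, adjusted p = 2.77e-05). Slc7a11, the cystine exchanger gene that also pairs with SLC3A2, was at 5.05, 5.29 and 5.44 in NRG1 cells and at 5.43, 5.73 and 5.85 in untreated cells. Its groups overlapped at a dim level, and it fell by 0.41 (limma, adjusted p = 0.0363). The cationic transporter gene Slc7a2, also dim, fell by 0.39 (limma, adjusted p = 0.0262). Among the measured light chain genes that pair with SLC3A2, Slc7a8 fell, as did Slc7a11 with overlapping groups, Slc7a6 rose, and Slc7a5, Slc7a7 and Slc7a10 were not called.

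In the list of amino acid sensing by mTORC1, the kinase complex that couples amino acid supply to growth, 3 of 30 genes rose (10%, against 12.3% of all genes) and 5 fell (16.7%, against 8.56%). Of genes at or above the median level, where 29 of the 30 lie, 20.5% rose and 12.9% fell. The falls numbered 9 after quantile normalization and 8 without the genes below the median level, and a minimum change of 1.2-fold left 1 rise and 1 fall. Mios, a subunit of the GATOR2 complex, rose by 0.72 (limma, adjusted p = 1.91e-05), the activator GTPase gene Rheb by 0.41 and Sec13, shared by GATOR2 and the secretory coat, by 0.41. The inhibitor genes Sesn3 and Sesn1 fell by 0.74 and 0.40. The third sestrin gene, Sesn2, counted in the stress response list and named after its value was seen, rose by 0.26 (limma, adjusted p = 0.0268). Rragd, for one of the RAG GTPases, fell by 0.48 (limma, adjusted p = 0.00459). The medians of the enzyme, transporter and mTORC1 lists were -0.022, -0.039 and -0.038, close to that of all genes (-0.029). For genes at or above the median level the median was 0.008, and the mTORC1 list lay below that.

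**Figure D5:**
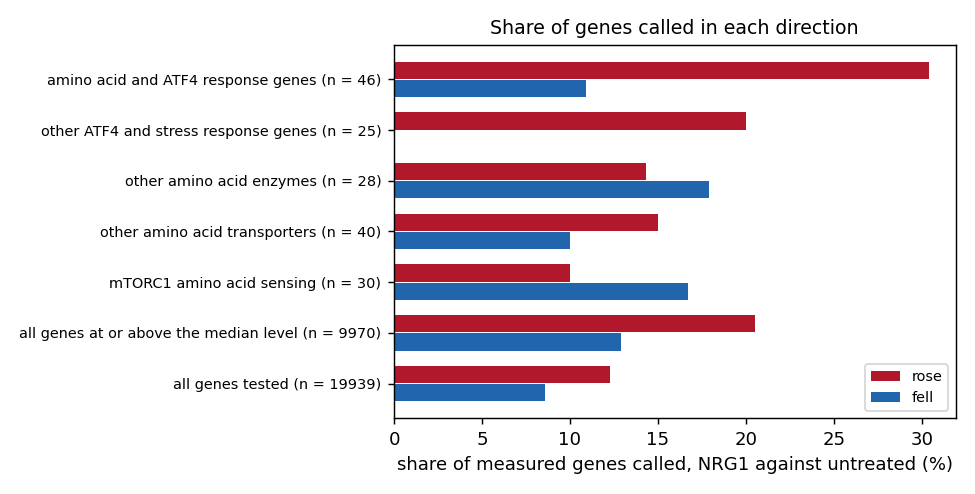
Share of measured genes that rose or fell in NRG1 against untreated cells (x axis, %, limma adjusted p under 0.05) for the 46 genes, the 4 lists of related genes, all genes at or above the median level and all genes tested. The 46 genes have 30.4% rises, against 20.5% of genes at or above the median level and 12.3% of all genes.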

How the data were processed

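Total RNA (200 ng per sample, per the labels) from 6 samples was measured on Affymetrix mouse arrays. The deposited table holds log2 values (2.34 to 14.59); the authors named RMA and GCOS, per the submitters' processing notes, with settings and versions not given in the sources used here. That the unit is log2 follows from the range of the values. RMA usually corrects background and normalizes across arrays, and array signals are compressed near background and saturation. Sample titles gave the groups and replicate numbers, and all 6 columns were matched to them, with 0 left over.

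Names came from the platform's annotation and were brought up to date by Entrez number with RefSeq genes (GRCm38.p6). A single gene was paired with 21789 probe sets and several genes with 1621, and 12147 were unnamed here. The brightest probe set per gene gave 19939 genes. The test was limma's moderated test (version 3.58.1, R 4.3.3; lmFit, eBayes, 2-sided, Benjamini-Hochberg over all genes, threshold 0.05), as NRG1 minus untreated. The fit was tested on simulated data. A gene is called, and rose or fell, where it passed. All 46 measured genes are named, and from each of 4 related lists up to 3 called genes per direction. The genes and lists were chosen with earlier results of these data known. Lists are described by counts, without a set test.

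The alternatives, 16 settings in all, were quantile normalization, median centring, 2 filters on dim genes, all probe sets, mean of probe sets, a trend and robust prior, array weights, a replicate block, leaving out each array, and a minimum change of 1.2-fold. Another background correction needs probe-level signals, which were not used here. Same-numbered arrays did not deviate together (correlations -0.095, -0.164 and 0.0739), and the test has no block. An array has no read depth, and 3 arrays per group limit the precision.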

Additional observations from a re-analysis of the deposited data

How the results depend on the processing

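The 46 genes gave 14 rises and 5 falls, and all genes 2461 and 1707. Among the 19 called genes, 11 were called under every one of the 16 settings that measured them, with the same sign, and 19 of the 27 uncalled genes were called under none. Of 728 single-gene values under the alternatives, 28 lost a call, 19 gained one and 0 changed sign with a call. Falls among the 46 genes numbered 8 after quantile normalization, 8 without the genes below the median level and 8 with a trend and robust prior. Against a minimum change of 1.2-fold the 46 genes gave 8 rises and 3 falls and all genes 883 and 342, being a stricter test, and the calls of Trib3, Vldlr, Slc1a4, Slc7a6, Cebpb, Ddit3, Slc7a1 and Slc36a1 ended. With array weights 2880 of all genes fell. Leaving out 1 array at a time gave 12 to 14 rises and 3 to 4 falls of the 46 genes (3 without NRG1 replicate 3 or untreated replicate 1), and 1907 to 2596 rises and 1153 to 1801 falls of all genes. With the replicate block, where the arrays share only a number, there were 12 rises and 5 falls of the 46 genes and 2198 and 1410 of all genes; Cebpb and Slc7a1 were the calls lost. The cause of these differences was not tested. The differences between the changes of the 5 gene pairs, added after the data were seen, moved by less than the spread between arrays with quantile normalization and with array weights. The other settings could not have moved them by more than that spread. They leave such a difference as it is or, on leaving out 1 array, can shift it only by less than that spread. The 2 filters on dim genes drop Aldh1l1, so its pair with Aldh1l2 was not measured under them. Of the 46 genes, 8 were below the median level, where signals are compressed.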
